A study of Mus musculus with 16 samples.

Results

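Cxcl16 encodes a chemokine that is made as a transmembrane protein, and Cxcr6 encodes its only known receptor. Both genes were taken by symbol from the 32285 genes listed in each of the 8 deposited single-cell matrices, and both were found in all 8, so that the pair is 2 of 32285 genes. On the cell surface CXCL16 can hold and take up particles, and after cleavage by metalloproteases such as ADAM10 and ADAM17 it acts as a soluble attractant. CXCR6 is a G protein-coupled receptor of activated, tissue-homing and resident T cells, NK T cells and innate lymphoid cells, and in tumours the ligand is known from macrophages and dendritic cells. The ligand was followed in the myeloid and dendritic classes and the receptor in the T and NK classes.

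The cells came from subcutaneous B16 melanomas grown in C57BL/6J mice from 1000000 implanted Bro4.1 B16 cells, which either carried intact B2m (control tumours) or lacked it (B2m-null tumours). The protein encoded by B2m holds MHC class I on the cell surface. Every mouse was injected intraperitoneally with 100 µg of antibody at days 6, 9 and 12 after implantation, and tumours were taken at day 14. The antibody was agonistic anti-CD40, which activates antigen-presenting cells through the receptor CD40, or a rat IgG2a isotype control. Control tumours came from 5 isotype and 2 anti-CD40 mice, called control isotype and control CD40, and B2m-null tumours from 5 isotype and 4 anti-CD40 mice. Where 4 values follow one another, control tumours come first and isotype comes before anti-CD40. The labels assign the genotype to the mouse, but the text on the design assigns it to the implanted cells, and the latter was used. Whether each implanted line was 1 clone is not given in the sources used here.

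Cells were selected on CD45 beads, marked with 1 hashtag antibody per mouse and pooled by group, so that each pool was 1 lane except for control CD40, where 2 lanes that the labels call technical replicates hold the same pool. The labels list 3 hashtags for each pool, but 6 of the 8 matrices hold 2. Each hashtag found in a matrix was taken as 1 mouse, and every number of mice given here rests on that. Both control CD40 mice therefore share a pool, and pool and antibody cannot be told apart in that group. Depth was counted in unique molecular identifiers (UMIs, each standing for 1 captured RNA molecule). In units of 1000000 UMIs the lanes held 46.0 to 99.3, and their median UMI count per barcode ran from 1715 to 4225. The 2 control CD40 lanes had the lowest medians, 2136 and 1715, against 2756 and 3348 in the control isotype lanes. Between 44.3% and 91.0% of barcodes were assigned to a mouse, and 76672 assigned cells were used, 874 to 17454 per mouse. The lowest share was that of B2m-null isotype replicate 1, a lane with 3 hashtags. Pairs of lanes shared 41 to 92 barcodes, at most 0.623% of the smaller lane. Melanoma-like cells carried 1055 to 2227 B2m UMIs per 1000000 in the control mice and 329 to 453 in the 3 B2m-null isotype mice with at least 20 such cells, and no B2m-null CD40 mouse had that many. Clusters were named from markers, so each class is macrophage-like, CD8 T-like and so on, and the ending is left out in what follows. Neither gene took part in the clustering, although Cxcr6 would have been among its variable genes. Levels are given as CPM, the UMIs of a gene per 1000000 UMIs of a mouse's cells of that class. A mouse entered a class with at least 20 cells.

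Cxcl16 was highest in mature dendritic cells, the Ccr7-expressing cells that carry antigen to lymph nodes. Its mean over the group means was 584 CPM there, and single mice ran from 368 to 917 CPM. Macrophages and monocytes followed at 292 and 290 CPM, and their mice, at 169 to 428 and 134 to 507 CPM, overlapped. Fibroblasts (161 CPM), cDC2 (147 CPM), cDC1 (143 CPM) and neutrophils (138 CPM) formed the next group, whose ranges over mice overlapped one another. At the ratio of Cxcl16 to the macrophage genes C1qa, C1qb and C1qc in monocytes and macrophages of the same group, those genes matched 66.7% to 91.0% of the Cxcl16 UMIs of neutrophils by group, against 9.93% to 22.9% in cDC1 and cDC2. B and plasma cells held 71.8 CPM (19.6 to 130 CPM over mice), of which the same genes matched 58.3% to 136%. The T and NK classes were low, with 17.6 CPM in NK cells, 12.5 CPM in CD8 T cells, 10.5 CPM in regulatory T cells and 7.59 CPM in CD4 T cells. Melanoma cells, which the CD45 selection had carried over, held 20.4 CPM. In monocytes and macrophages together, 43.8% to 66.5% of cells had a Cxcl16 UMI, as the mean over mice of each group, against 2.14% to 3.54% of CD8 T cells. The median UMI count per cell was 1723 to 9016 over mice in the first class and 1031 to 3052 in the second. After each cell was thinned to 1000 UMIs, which kept 11260, 8485, 8757 and 8368 monocytes and macrophages of the 4 groups, the shares were 20.6%, 26.5%, 16.5% and 28.9%. In CD8 T cells thinned in the same way the shares were 1.08% to 1.21%.

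The receptor had the opposite distribution. Cxcr6 was highest in CD4 T cells other than regulatory T cells, at 880 CPM over the group means with mice from 471 to 1196 CPM. A small unnamed cluster led by Il22, Cd163l1, Gata3, Calca, Il13, Il5, Il17a and Areg, genes of type 2 and type 17 lymphocytes, followed at 622 CPM. That mean covers the 3 groups with enough such cells. CD8 T cells stood at 494 CPM (266 to 750 CPM over 16 mice), and the ranges of these 3 overlapped. Regulatory T cells (226 CPM, 62.7 to 483 CPM over mice) and NK cells (143 CPM, 18.1 to 273 CPM) had lower means. Their ranges still overlapped that of CD8 T cells. Macrophages and monocytes were near 0, at 3.35 and 2.86 CPM. Dendritic classes held 41.0 CPM (cDC1), 71.0 CPM (cDC2) and 88.0 CPM (mature) of Cxcr6 and also carried T cell markers, at a summed 190 to 1437 CPM of 6 markers over mice with mature dendritic cells. The T and NK classes that held the receptor held little ligand.

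**Figure D1:**
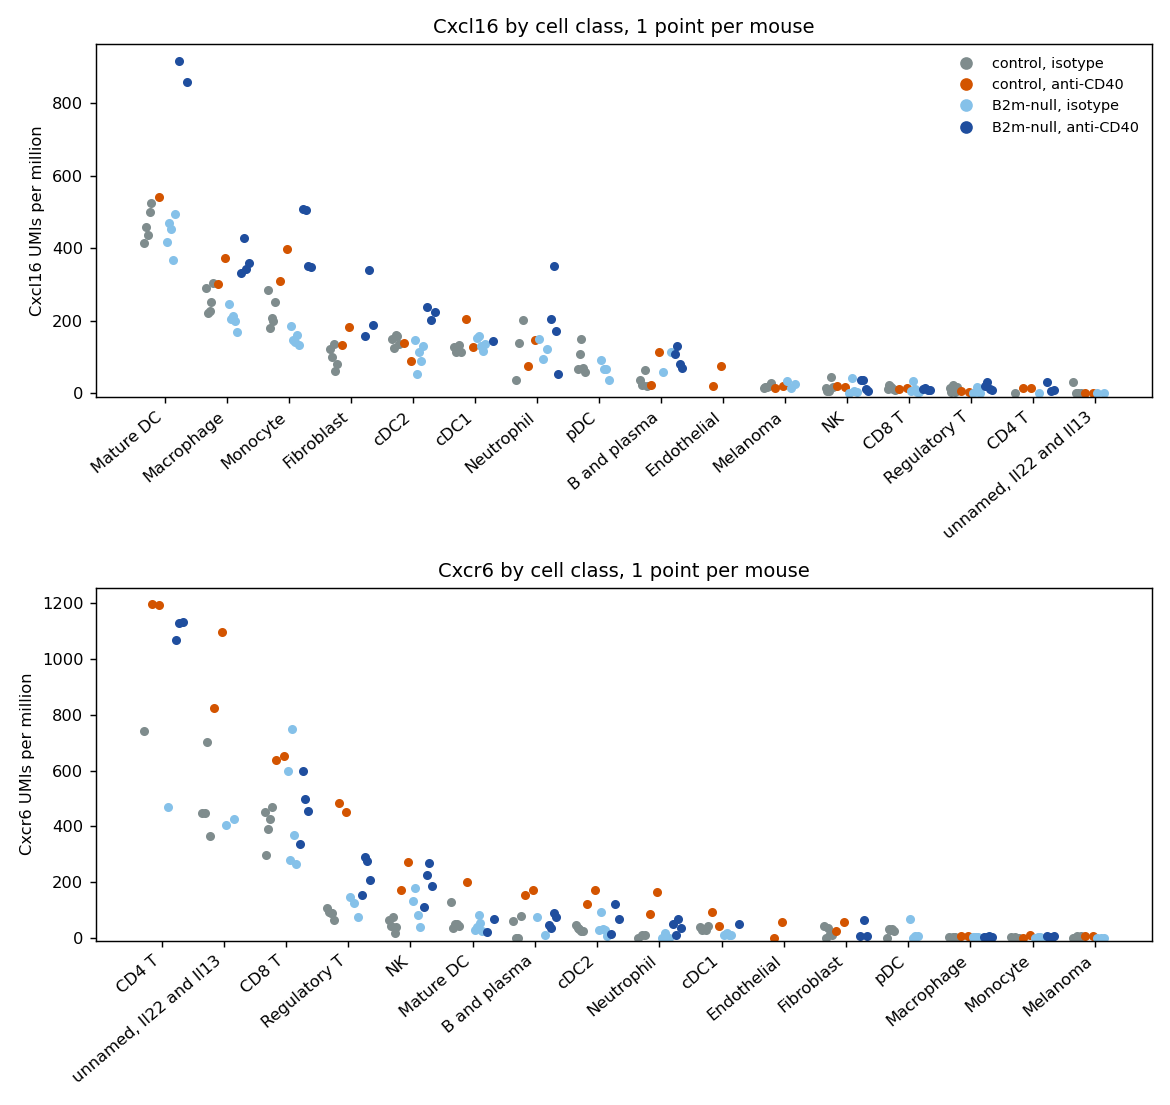
Levels in CPM of Cxcl16 (top) and Cxcr6 (bottom) in each cell class, with classes ordered by the mean of the group means, 1 point per mouse with at least 20 cells and colours for the 4 groups. Cxcl16 is high in mature dendritic cells, macrophages and monocytes, Cxcr6 in T cells and the unnamed cluster led by Il22 and Il13, and macrophages and monocytes lie near 0 for Cxcr6.

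Over 13 haematopoietic classes and 9676 genes at 10 CPM or more in some class, the gene whose class means (as log2 of CPM plus 1) were most like those of Cxcl16 was Marcks, with a Pearson r of 0.98. Anxa4, Rsu1, Pgap2 and Lacc1 came next, with r between 0.967 and 0.978. For Cxcr6 the most similar gene was Ubash3a at r = 0.986, a regulator of T cell receptor signalling. Cd247, Cd3g and Cd28, genes of the T cell receptor complex and of costimulation, were also among the 5 most similar, at 0.971 to 0.976. The classes come from the same libraries and share their depth, so these r values describe the pattern only.

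In control tumours, Cxcl16 in monocytes and macrophages was higher under anti-CD40. The control isotype mice had 289, 206, 224, 246 and 295 CPM (252 ± 39.0, SD, n = 5), and the control CD40 mice had 302 and 375 CPM (339 ± 51.5, n = 2). The groups did not overlap, but the highest isotype mouse lay close below the lower treated one. The log2 change was 0.56 (SE 0.15, adjusted p = 0.0153, edgeR quasi-likelihood test), in a fit where 20.9% of 12565 genes passed. Fitted changes are scaled by TMM factors and come from summed counts, in which deeper mice can weigh more. They therefore differ from ratios of mean CPM. In monocytes and macrophages they lay above the log2 ratios of CPM in both antibody comparisons. The call was lost without control isotype replicate 1 (0.46, adjusted p = 0.108) and without the control CD40 mouse that held 375 CPM (0.34, adjusted p = 0.303).

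In B2m-null tumours Cxcl16 rose as well. The 5 B2m-null isotype mice had 241, 194, 199, 189 and 167 CPM of Cxcl16 (198 ± 26.8), and the 4 B2m-null CD40 mice had 379, 461, 344.5 and 356 CPM (385 ± 52.6). Each treated mouse exceeded each isotype mouse by over 100 CPM. The log2 change was 1.17 (SE 0.13, adjusted p = 9.46e-06, edgeR), where 35.9% of genes passed. This call held in all 26 alternatives run for it, with log2 changes of 1.06 to 1.29.

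The test of the difference between both antibody effects gave 0.61 log2 (SE 0.20, adjusted p = 0.0450, edgeR), where 18.8% of genes passed, so the rise of Cxcl16 was larger in B2m-null than in control tumours. That call fell short of the threshold in 19 of 33 alternatives, and the value ran from 0.43 (without the control CD40 mouse that held 302 CPM, adjusted p = 0.286) to 0.84 over all of them. Under isotype, Cxcl16 was lower in B2m-null than in control tumours, at -0.41 log2 (SE 0.12, adjusted p = 0.0442), where 8.52% of genes passed, although the mice overlapped (167 to 241 against 206 to 295 CPM). The isotype difference was lost in 15 of 27 alternatives, for example without control isotype replicate 2 (-0.35, adjusted p = 0.135). Under anti-CD40 the genotypes did not differ beyond the spread (0.20, SE 0.16, adjusted p = 0.442), where 10.6% of genes passed. The isotype mice enter both the antibody and the genotype comparisons.

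Monocytes and macrophages were also fitted apart. Monocytes of the control isotype group had 285, 179, 208, 198 and 250.2 CPM of Cxcl16 and those of the control CD40 group had 309 and 398 CPM. In B2m-null tumours the isotype monocytes had 185, 148, 142, 160.3 and 134 CPM, and the treated ones had 507, 506, 349.5 and 349 CPM. The 2 mice of each B2m-null CD40 pool lay within 2 CPM of each other and the pools lay over 150 CPM apart. The log2 changes were 0.76 (SE 0.17, adjusted p = 0.00475) in control and 1.67 (SE 0.14, adjusted p = 1.89e-08) in B2m-null tumours, where 8.73% and 33.7% of genes passed. They differed by 0.91 (SE 0.23, adjusted p = 0.0113, edgeR), where 12.2% of genes passed. Without the control CD40 mouse at 398 CPM the change in control tumours was 0.52 (adjusted p = 0.288). Without the other control CD40 mouse the difference was 0.74 (adjusted p = 0.110), and without B2m-null isotype replicate 1 it was 0.94 (adjusted p = 0.0576). The macrophage genes C1qa, C1qb and C1qc summed to 2561, 3170, 1540 and 3184 CPM in the monocytes of the 4 groups, and at the ratio seen in monocytes and macrophages together they would match 46.5%, 51.9%, 35.5% and 44.9% of the Cxcl16 UMIs. Their part in the result was not tested.

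In macrophages the changes were 0.53 (SE 0.15, adjusted p = 0.0158) in control and 1.03 (SE 0.12, adjusted p = 1.56e-05) in B2m-null tumours, where 21.7% and 33.8% of genes passed. Their difference, 0.50 (SE 0.19, adjusted p = 0.0786), did not pass, where 17.9% of genes did. Group means were 258 ± 37.3, 338 ± 50.9, 206 ± 27.5 and 365 ± 43.3 CPM. The call in control tumours was lost without control isotype replicate 1 (0.43, adjusted p = 0.116), without 1 control CD40 mouse (0.30, adjusted p = 0.328) and in cells thinned to 2000 UMIs (0.42, adjusted p = 0.0575).

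**Figure D2:**
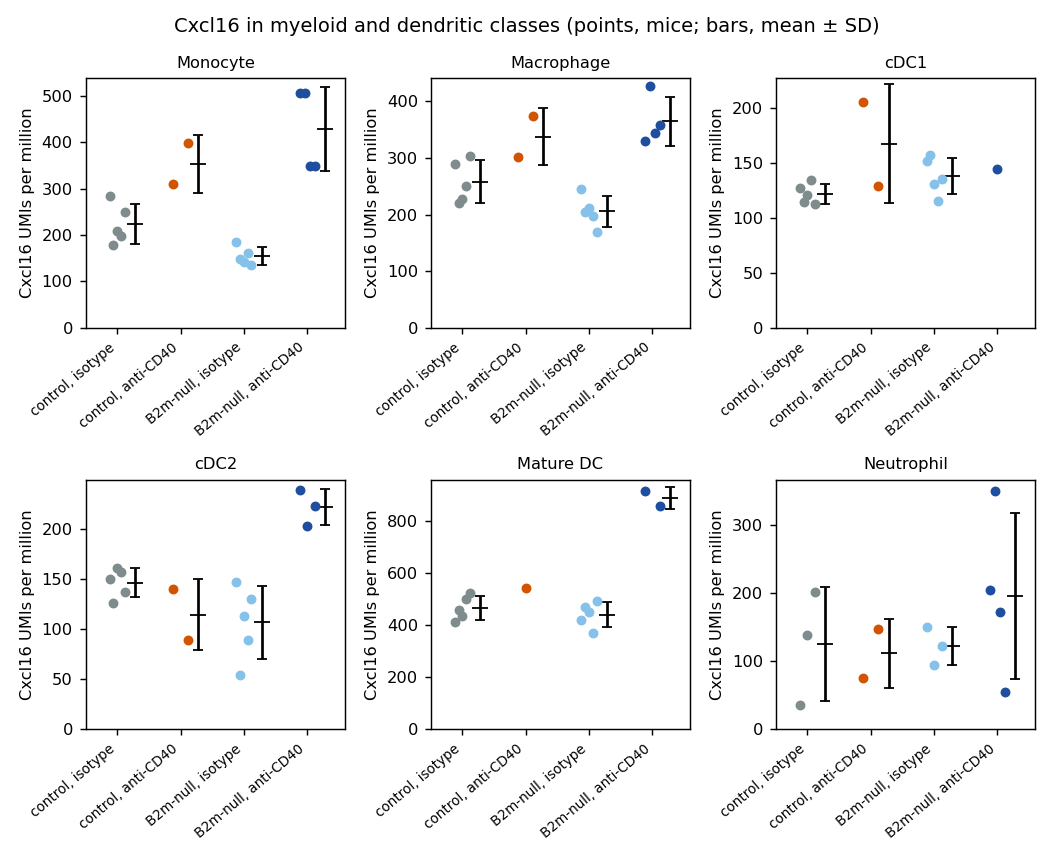
Cxcl16 in CPM for 6 myeloid and dendritic classes by group, with 1 point per mouse and bars for the mean ± SD. In monocytes the 4 B2m-null CD40 mice sit at 349 to 507, all above the B2m-null isotype mice at 134 to 185, while in cDC1 and neutrophils the groups overlap.

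The clusters that make up the monocyte class had different shares under anti-CD40, and they differed in Cxcl16. One monocyte cluster was led by Ly6i, Fpr2, Cfb and Nos2, the gene of inducible nitric oxide synthase. It held 5.83% of monocytes in control isotype and 40.9% in control CD40 tumours, and 2.03% and 72.9% in B2m-null tumours. Cxcl16 in it stood at 409, 471, 558 (1 mouse) and 512 CPM in the 4 groups. In the other cluster, led by Ccl24, Vcan and Chil3, genes of classical monocytes, the level was 212 ± 39.2, 217 ± 14.0, 151 ± 20.1 and 244 ± 77.9 CPM. Within that cluster the control groups thus lay within their spread of each other, and the B2m-null CD40 mice, at 169 to 347 CPM, overlapped the isotype mice at 130.1 to 184 CPM.

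In each of the 7 macrophage clusters the mean of Cxcl16 was higher under anti-CD40 than under isotype, in control and in B2m-null tumours alike, but the mice of the 2 treatments overlapped in 6 of the 7 clusters in control and in 2 of the 7 in B2m-null tumours. In the cluster led by Mmp12, Mmp13 and Arg1, which produce matrix proteases and arginase, the means were 237, 344, 177 and 378 CPM, and neither pair of groups overlapped. In the cluster led by H2-M2 and Gpnmb the level was high in every group, at 372, 408, 443 and 508 CPM. Its share of macrophages went from 4.68% to 49.8% in control and from 1.62% to 14.3% in B2m-null tumours. These values are descriptions, and the parts of level and cluster shares in the class difference were not tested.

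Within the same mice, Cxcl16 went with some other genes of the monocytes and macrophages. Cells with a Cxcl9 UMI, a chemokine induced by interferon-gamma, had more Cxcl16 than cells without in 16 of 16 mice, with medians of 322 against 238 CPM. H2-Ab1, an MHC class II gene, gave 280 against 217 CPM, again in 16 of 16 mice. Cells with the complement gene C1qa were higher in 15 of 16 mice (277 against 179 CPM), with the adhesion gene Vcam1 in 15 of 16 (280.5 against 240.2 CPM), with Nos2 in 14 of 15 (326 against 268 CPM) and with Cd40 itself in 13 of 16 (311 against 256 CPM). Trem2 gave higher Cxcl16 in 14 of 16 mice (267 against 254 CPM) and Ly6c2 in 2 of 16 (251 against 270 CPM). Splits by Arg1, Mrc1, Spp1 or Il15 gave higher Cxcl16 in 5, 6, 6 and 4 of 16 mice. Cells with a UMI of the second gene were deeper for each gene given here as higher in most mice. For Cxcl9, for example, the medians were 5548 against 3000 UMIs, and the part of depth was not tested.

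Among dendritic cells of B2m-null tumours, Cxcl16 rose in cDC2, which prime CD4 T cells. In mature cells it was higher in the 1 treated pool that could be tested, replicate 1. The cDC2 of B2m-null isotype mice had 147, 53.7, 113, 89.4 and 130.2 CPM, and those of the 3 B2m-null CD40 mice with enough cells had 238.6, 203 and 223 CPM. The groups did not overlap, and the log2 change was 1.16 (SE 0.21, adjusted p = 0.000647, edgeR), where 8.31% of genes passed. In control tumours the isotype cDC2 had 126 to 161 CPM and the treated ones 139.5 and 89.4 CPM, a change of -0.37 (SE 0.27, adjusted p = 0.539), where 3.57% of genes passed. The antibody effects differed by 1.54 log2 (SE 0.34, adjusted p = 0.00678), where 4.67% of genes passed. The rise did not pass with B2m-null CD40 replicate 1 alone, which leaves 1 treated mouse (1.17, adjusted p = 0.509). The difference was lost in 3 of 31 alternatives, namely without the control CD40 mouse at 89.4 CPM (1.19, adjusted p = 0.151), with cells thinned to 2000 UMIs (1.35, adjusted p = 0.182) and without B2m-null CD40 replicate 2 (1.56, adjusted p = 0.333).

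Mature dendritic cells of the 5 B2m-null isotype mice had 418, 469, 452, 368 and 494 CPM of Cxcl16, against 917 and 858 CPM in the 2 B2m-null CD40 mice with enough cells. The log2 change was 1.00 (SE 0.17, adjusted p = 0.00083), where 1.43% of genes passed. Both treated mice came from replicate 1 and held 27 and 30 mature dendritic cells. The replicate 2 mice had too few such cells to be tested. Over all 83 mature cells of B2m-null CD40 mice, replicate 2 included, the pooled level was 697 CPM, against 419 CPM pooled under isotype. The replicate 1 mice held 175 of the 257 Cxcl16 UMIs in those 83 cells. Cells of replicate 2 thus lay below those of replicate 1, and a rise in replicate 2 was not shown. A single control CD40 mouse had enough such cells, at 541 CPM, so the antibody effect in control tumours could not be tested. With the lane as the unit the rise was 0.58 (adjusted p = 0.296). In cDC1, which cross-present antigen to CD8 T cells, control isotype mice had 113 to 134 CPM and control CD40 mice had 205 and 129 CPM (0.44, SE 0.21, adjusted p = 0.358), where 1.78% of genes passed.

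Joined in 1 set, conventional and mature dendritic cells had 246 ± 15.4, 218 ± 20.2, 226 ± 29.4 and 365 ± 153 CPM of Cxcl16 in the 4 groups. The change was -0.15 (SE 0.24, adjusted p = 0.833) in control and 0.72 (SE 0.19, adjusted p = 0.0179) in B2m-null tumours, where 3.34% and 12.0% of genes passed. The B2m-null CD40 mice split by pool, with 483 and 508 CPM in replicate 1 and 205 and 264 CPM in replicate 2, and the call was lost without replicate 1 (0.19, adjusted p = 0.387). The set held 2416 cells in control isotype and 251 in control CD40 mice, and 1944 and 303 in the B2m-null groups, so that levels of treated mice rest on few cells. The set was also made up differently, with 850 mature dendritic cells in control isotype and 50 in control CD40 mice and 727 and 83 in the B2m-null groups. Of those 83, 57 came from the 2 replicate 1 mice (27 and 30) and the others from replicate 2 (12 and 14). Mature cells had more Cxcl16 than conventional ones, and the part of the make-up in these changes was not tested.

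**Figure D3:**
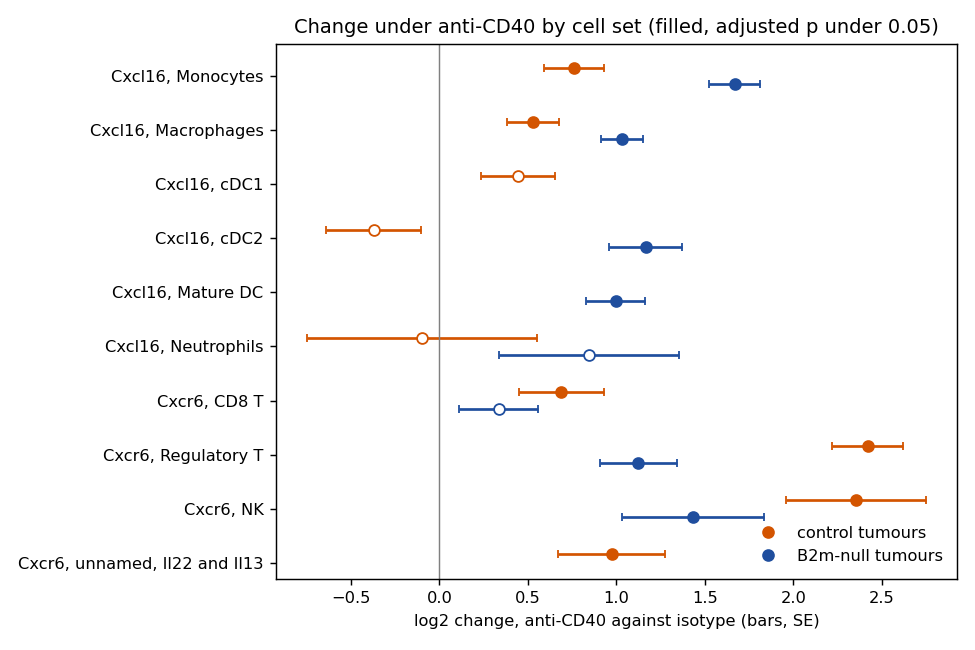
Fitted log2 changes of Cxcl16 and Cxcr6 under anti-CD40 against isotype by cell set, with bars for the standard error, orange for control and blue for B2m-null tumours, and filled points for an adjusted p under 0.05. Sets with too few mice have no point, and Cxcl16 points of B2m-null tumours lie to the right of those of control tumours in monocytes, macrophages and cDC2.

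Shedding from the cell surface turns CXCL16 into its soluble form. Of 6 genes listed for shedding (Adam10, Adam17, Adam9, the iRhom genes Rhbdf1 and Rhbdf2, and the inhibitor Timp3), 5 were tested in monocytes and macrophages. None passed under anti-CD40 in control tumours by edgeR, and 2 fell in B2m-null tumours, where the list's median was -0.28 against -0.02 over all genes. In this fit 11.7% of genes rose and 9.25% fell in control tumours, and 17.8% rose and 18.1% fell in B2m-null tumours. Adam10 went from 109 ± 8.74 to 75.9 ± 14.2 CPM (-0.31, adjusted p = 0.0127), and Adam9 from 125 to 88.9 CPM (-0.28, adjusted p = 0.00749). Adam17 stood at 162 and 137 CPM (-0.03, adjusted p = 0.832), a drop in CPM that the TMM-scaled change does not show.

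IL-15 is a cytokine that myeloid cells present on the receptor chain IL-15RA to T and NK cells, among them CXCR6-bearing T cells in tumours. Il15 in monocytes and macrophages fell under anti-CD40 in control tumours, from 34.1 ± 5.75 to 18.7 ± 0.911 CPM (-0.72, SE 0.17, adjusted p = 0.00613), and stood at 26.7 and 23.0 CPM in B2m-null tumours (0.03 after TMM scaling, adjusted p = 0.887). Il15ra rose in B2m-null tumours, from 9.60 ± 3.89 to 29.1 ± 15.6 CPM (1.97, SE 0.37, adjusted p = 0.00108). In control tumours it was 14.1 and 16.2 CPM (0.33, adjusted p = 0.609). Of the list's 8 genes, 1 rose and 1 fell in control and 2 rose and 1 fell in B2m-null tumours, with medians of 0.21 and 0.08 against -0.01 and -0.02 over all genes. Of all genes 11.7% rose and 9.25% fell in control tumours and 17.8% and 18.1% in B2m-null tumours. The other genes that passed were Il2rb in control and Il2rg (rising) and Jak1 (falling) in B2m-null tumours, which encode receptor chains and a kinase of the same receptor. Those receptor chains are also T cell genes, and the summed level of 6 T cell markers, all 6 detected in each group, went from 10.1 to 21.8 CPM in the isotype mice to 42.7 to 57.6 CPM in the anti-CD40 mice of control tumours and from 8.91 to 23.4 CPM to 26.0 to 41.7 CPM in B2m-null tumours. Their part in the result was not tested.

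On the receptor side, Cxcr6 in CD8 T cells was higher under anti-CD40 in control tumours. The isotype mice had 451, 297, 390.2, 425 and 468 CPM (406 ± 67.6, n = 5), and the treated mice had 637 and 652 CPM (645 ± 10.6, n = 2). The groups did not overlap. The log2 change was 0.69 (SE 0.24, adjusted p = 0.0292, edgeR), where 36.1% of genes passed, 3466 in number, and 928 without the treated mouse at 652 CPM. The call was lost in 9 of 20 alternatives, among them cells thinned to 2000 UMIs (0.34, adjusted p = 0.175), the fit without control isotype replicate 1 (0.54, adjusted p = 0.252) and each fit without 1 of the control CD40 mice (0.67 and 0.68, adjusted p = 0.188 and 0.116).

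CD8 T cells of B2m-null tumours had 597, 278, 750, 369 and 266 CPM of Cxcr6 under isotype and 337, 597, 497 and 456 CPM under anti-CD40. The mice overlapped throughout, and the change was 0.33 (SE 0.22, adjusted p = 0.383), where 8.81% of genes passed, 847 in number, and 46 to 2084 over the alternatives. All isotype mice but the one at 369 CPM rest on 22 to 79 CD8 T cells. The difference of the antibody effects was -0.36 (SE 0.33, adjusted p = 0.546), where 10.8% of genes passed, so a different response in the tumour genotypes was not shown. Genotypes did not differ beyond the spread under isotype (-0.02, SE 0.21, adjusted p = 1.00), where 0.322% of genes passed, and the sign of that value changed in 15 of 27 alternatives, between -0.39 and 0.31.

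Per cell, 51.7%, 52.9%, 48.5% and 56.2% of CD8 T cells in the 4 groups had a Cxcr6 UMI. After thinning to 1000 UMIs, which kept 1404, 5194, 546 and 3953 cells, the shares were 33.0%, 43.5%, 36.0% and 34.4%. In monocytes and macrophages, which should lack the receptor, they were 0.096% to 0.940% after thinning and 0.497% to 2.01% before it.

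CD4 T cells were few under isotype, where 1 mouse of each genotype reached 20 cells, so no antibody effect could be tested. Those mice had 742 CPM in the control and 471 CPM in the B2m-null tumour, from 20 and 29 cells. Under anti-CD40 the control mice both had 1196 CPM, from 233 and 327 cells, and the B2m-null mice had 1070.1, 1129 and 1133 CPM, from 78, 578 and 274 cells. These were the highest Cxcr6 levels of any named class in the 5 mice. They did not differ between genotypes beyond the spread (-0.01, SE 0.13, adjusted p = 0.979, edgeR), where 6.16% of genes passed.

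**Figure D4:**
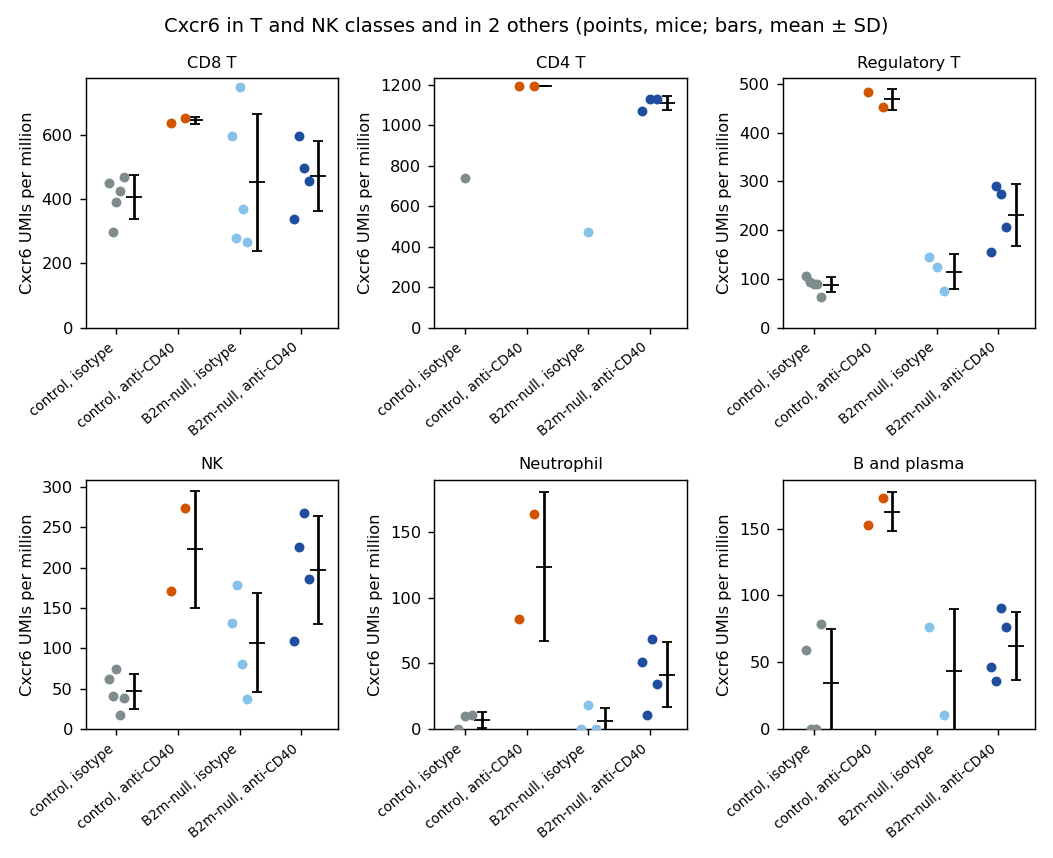
Cxcr6 in CPM for 4 T and NK classes and for neutrophils and B and plasma cells, by group, with 1 point per mouse and bars for the mean ± SD. The control CD40 mice lie above all control isotype mice in each panel, whereas the CD8 T cells of B2m-null tumours overlap between the antibodies. In B and plasma cells the summed level of 6 T cell markers was 27.8 to 570 CPM in control isotype mice. It was 1122 and 1168 CPM in control CD40 mice, and its part in that panel was not tested.

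Cxcr6 differed among the clusters of CD8 T cells. A small cluster led by Dapl1, Tcf7 and Lef1, genes of naive and stem-like T cells, had 49.1 ± 31.4, 103 ± 23.2 and 53.8 ± 23.6 CPM in control isotype, control CD40 and B2m-null isotype tumours. It held 18.1% of CD8 T cells in control isotype and 1.62% in control CD40 tumours, and 23.1% and 0.845% in B2m-null tumours. The cluster led by Gzmf, Gzme, Gzmb and Prf1, cytotoxic effector genes, had 427 ± 63.3, 657 ± 37.2, 459 ± 226 and 385 ± 87.6 CPM. In it the control CD40 mice, at 631 and 683 CPM, lay above the control isotype mice at 326 to 498 CPM, and the B2m-null groups overlapped. In the other clusters the mice of the control groups overlapped. The first cluster led by Gzmk and Ccl5 had 262 to 731 CPM under isotype and 602 and 696 CPM under anti-CD40. The second had 493 and 735 CPM against 620 and 643 CPM, and the Dapl1 cluster 14.5 to 96.6 CPM against 87.0 and 120 CPM. Group values of the 2 Gzmk clusters lay between 456 and 769 CPM, and those of B2m-null isotype tumours, 717 and 769 CPM, rest on 1 mouse each. Most CD8 T cells of control isotype tumours belonged to the Gzmf cluster (59.2%), and most of control CD40 tumours to a Gzmk cluster (55.8%), so that the class is made up differently in the groups compared.

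Within mice, CD8 T cells with a Tcf7 UMI had less Cxcr6 than cells without in 13 of 13 mice, with medians of 257 against 490.0 CPM. Tcf7 encodes TCF-1, a factor that keeps T cells in a naive or stem-like state. Cells with the cycling gene Mki67 were also lower in 13 of 13 mice (366 against 539 CPM). Prf1 and Gzmb, which encode perforin and granzyme B, went with higher Cxcr6 in 12 and 11 of 13 mice, and Lag3, an inhibitory receptor, in 10 of 11. The inhibitory receptors Pdcd1 and Havcr2 went with higher Cxcr6 in 9 of 13 and 7 of 11 mice, and Cd69, a gene of activated and resident T cells, in 2 of 13. Splits by Tox, Gzmk and Cx3cr1 gave no common direction (7 of 14, 5 of 12 and 4 of 10 mice higher). Cells with Tcf7 had fewer UMIs than those without (medians of 1754 and 2296) and cells with Prf1 more (3736 and 1354), and the part of depth was not tested.

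The sequence before the start of Cxcr6 is given from RefSeq, whose promoter table held 1 of the 2 genes. It lies at chr9:123806227-123806466 on the plus strand of GRCm38.p6, and the capitals mark the letters CTTTGA, the core of sites read by TCF/LEF factors.

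Cxcr6 promoter: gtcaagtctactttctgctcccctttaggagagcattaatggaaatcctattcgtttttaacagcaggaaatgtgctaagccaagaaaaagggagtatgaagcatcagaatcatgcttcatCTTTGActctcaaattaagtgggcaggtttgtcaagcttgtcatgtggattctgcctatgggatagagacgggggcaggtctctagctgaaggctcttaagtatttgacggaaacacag

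On either strand the window of 240 bases held 1 such match, and 13.5% of 32851 RefSeq promoters of the same length held at least 1. It held none of 8 other motifs searched on both strands, namely the T-box core AGGTGTGA, the RUNX core TGTGGT, the GATA core AGATAA, the AP-1 letters TGANTCA, the STAT letters TTCNNNGAA, an NF-kB form (GGG and CC with any 5 bases between), the TATA letters TATAAA and the ETS core CAGGAAG. The 8 strings occur in 1.07% to 44.2% of the promoters. Binding of any factor to the window, TCF-1 included, and an effect on Cxcr6 were not tested. Cxcr6 (ENSMUSG00000048521) spans chr9:123806475-123811760 on the plus strand of mm10 inside Fyco1, which runs on the minus strand and shares no exon with it. Cxcl16 (ENSMUSG00000018920) spans chr11:70453983-70459984 on the minus strand. An exon at its 5′ end overlaps one of Zmynd15 on the other strand at chr11:70459433-70459984, and Zmynd15 had 13.9 CPM in monocytes and macrophages against 285 CPM for Cxcl16.

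In regulatory T cells, the Foxp3-expressing suppressors, Cxcr6 rose in both tumours. Control isotype mice had 107, 92.7, 89.2, 88.9 and 62.7 CPM, and control CD40 mice had 483 and 453 CPM. B2m-null isotype mice had 145, 124 and 75.9 CPM (2 mice had too few cells), and B2m-null CD40 mice had 154, 291, 274 and 206 CPM. Neither pair of groups overlapped, but in B2m-null tumours the nearest mice were 9 CPM apart. The log2 changes were 2.42 (SE 0.20, adjusted p = 5.20e-15) and 1.12 (SE 0.22, adjusted p = 0.000167), where 18.1% and 12.1% of genes passed. The effects differed by -1.30 (SE 0.30, adjusted p = 0.00599), where 3.14% of genes passed, and under anti-CD40 the B2m-null mice were lower by 0.94 log2 than the control mice (adjusted p = 0.00277), where 3.07% of genes passed. That genotype difference did not pass without either control CD40 mouse (-0.89 and -0.99, adjusted p = 0.0528 and 0.132), and the difference of the effects was lost in 6 of 29 alternatives. They included the fits without the mouse at 453 CPM (-1.35, adjusted p = 0.0572), without B2m-null isotype replicate 2 (-1.53, adjusted p = 0.0659) or without 1 of its mice (-1.11, adjusted p = 0.104), and cells thinned to 2000 UMIs (-1.12, adjusted p = 0.277).

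A gene of CD8 T cells moved with these values, and how its UMIs came into the set was not tested. Cd8b1, a chain of the CD8 co-receptor that regulatory T cells should lack, went from 44.0 to 285 CPM in regulatory T cells of control and from 33.5 to 356 CPM in those of B2m-null tumours. If each Cd8b1 UMI brought the number of Cxcr6 UMIs seen in CD8 T cells of the group, it would match 60.5%, 78.4%, 27.5% and 98.9% of the Cxcr6 UMIs of regulatory T cells in the 4 groups. When all cells with a Cd8a or Cd8b1 UMI were left out, an alternative added after the data had been seen, the change stayed in control tumours (1.89, adjusted p = 0.000177) and was lost in B2m-null tumours (0.32, adjusted p = 0.675). The difference of the effects was then -1.58 (adjusted p = 0.0753). The call in B2m-null tumours was also lost without B2m-null isotype replicate 2 (0.88, adjusted p = 0.235) and without B2m-null CD40 replicate 2 (0.97, adjusted p = 0.0863).

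NK cells had 62.4, 41.1, 74.0, 18.1 and 39.1 CPM of Cxcr6 in control isotype and 171 and 273 CPM in control CD40 mice. In B2m-null tumours 4 isotype mice had 132, 178, 80.5 and 37.6 CPM and the treated mice had 109, 225, 268 and 186 CPM. The control groups did not overlap and the B2m-null groups did. The changes were 2.35 (SE 0.40, adjusted p = 0.00314) and 1.43 (SE 0.40, adjusted p = 0.0382), where 5.85% and 10.6% of genes passed. Their difference was -0.92 (SE 0.58, adjusted p = 0.472), where 3.07% of genes passed. The call in control tumours was lost without the mouse at 273 CPM (2.01, adjusted p = 0.0583), and that in B2m-null tumours in 13 of 26 alternatives, down to 0.55 (adjusted p = 0.674) without B2m-null isotype replicate 2. The summed level of 6 T cell markers in NK cells also rose, from 175 to 354 CPM over control isotype mice to 724 and 1141 CPM in control CD40 mice, and from 134 to 315 CPM to 609 to 1306 CPM in B2m-null tumours, with all 6 markers detected in each group. Cd8b1 matched 52.1%, 59.0%, 21.8% and 35.7% of the Cxcr6 UMIs in NK cells on the scale of CD8 T cells. Without the cells that had a Cd8a or Cd8b1 UMI the changes were 2.45 (adjusted p = 0.0053) in control and 1.45 (adjusted p = 0.0624) in B2m-null tumours.

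In the unnamed cluster led by Il22 and Il13, Cxcr6 had 446, 448, 701 and 365 CPM in 4 control isotype mice and 823 and 1097 CPM in both control CD40 mice (0.97, SE 0.30, adjusted p = 0.0484), where 5.65% of 743 genes passed. The groups did not overlap, each mouse held 27 to 47 of these cells, and the call was lost in 9 of 14 alternatives, among them each fit without 1 of the control CD40 mice (0.73 and 1.21, adjusted p = 0.446 and 0.0704). Cd8b1 matched 3.50% to 8.18% of the receptor's UMIs there and 13.3% to 28.7% in CD4 T cells.

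Cxcr6 UMIs also rose in macrophages and neutrophils. Macrophages went from 1.29 to 6.96 CPM in control tumours (2.58, adjusted p = 6.16e-06) and from 1.52 to 3.63 CPM in B2m-null tumours (1.74, adjusted p = 0.000236). Neutrophils of control tumours went from 6.83 ± 5.93 to 124 ± 56.4 CPM (4.0 log2, adjusted p = 0.0216), where 1.91% of genes passed. A mean of 1.07% of neutrophils held a Cxcr6 UMI in the isotype mice and 16.03% in the anti-CD40 mice, and of macrophages 0.530% and 2.15%. In macrophages the summed T cell markers stood at 10.2 to 23.0 CPM in control isotype and 45.0 and 57.8 CPM in control CD40 mice, with all 6 detected. In neutrophils they stood at 0 to 49.3 CPM, with Cd3e and Cd8a at 0, and at 933 and 1181 CPM. Cd8b1 matched 64.1% to 98.7% of Cxcr6 UMIs in macrophages and 88.2% to 218% in neutrophils. In cDC1 under isotype, Cxcr6 was lower in B2m-null than in control tumours, at 11.8 ± 3.50 against 33.4 ± 5.80 CPM (-1.65, adjusted p = 0.000644, edgeR), where 1.37% of genes passed. There Cd8b1 matched 94.7% of the receptor's UMIs in control and 149% in B2m-null tumours.

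The genes known to act with CXCR6 in T cell residence and recirculation were followed as a list of 17, of which 14 were tested in CD8 T cells. Under anti-CD40 in control tumours 7 rose and 1 fell, with a median of 0.69 against -0.01 over all genes, of which 17.6% rose and 18.5% fell. Itga1, an integrin of resident cells, rose from 16.3 ± 4.28 to 37.5 ± 7.36 CPM (1.18, adjusted p = 0.0141), and Runx3, a factor of CD8 and resident T cells, from 172 ± 21.2 to 348 ± 43.3 CPM (1.04, adjusted p = 1.65e-05). S1pr1, the receptor that leads T cells out of tissues, rose from 31.7 to 121 CPM (2.11, adjusted p = 0.000272), and its activator Klf2 from 126 to 361 CPM (1.58, adjusted p = 0.000249), together with Klf3 (2.27). Ccr7, a lymph node homing receptor, fell from 54.4 to 15.6 CPM (-1.77, adjusted p = 0.0012). The members that rose thus stood on both sides, residence and exit. In B2m-null tumours 1 of 14 rose, the T-box gene Tbx21 (0.69, adjusted p = 0.0468), and Ccr7 fell (-1.89, adjusted p = 0.0101), with a median of 0.11 against 0.03 over all genes, of which 6.27% rose and 2.54% fell.

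In NK cells 2 of the 14 tested genes rose and 1 fell in control tumours and 4 rose and 2 fell in B2m-null tumours, with medians of 0.37 and 0.10 against -0.02 over all genes in both. Of all genes 3.67% rose and 2.18% fell in the former, and 6.44% and 4.14% in the latter. Itga1 rose in both (1.58, adjusted p = 4.32e-06, and 1.12, adjusted p = 0.005), as did Rgs1, a brake on chemokine receptor signalling (0.99, adjusted p = 9.27e-05, and 1.04, adjusted p = 1.50e-05). Tcf7 fell in B2m-null tumours (-1.78, adjusted p = 0.0273). The summed level of the 6 T cell markers in NK cells, all 6 detected in each group, was 175 to 354 CPM in control isotype and 724 to 1141 CPM in control CD40 mice, and 134 to 315 and 609 to 1306 CPM in the B2m-null groups, and its part in the list's result was not tested. In regulatory T cells 6 of 14 rose in control and 3 in B2m-null tumours, with Klf2 and Runx3 among them in both, and none fell at adjusted p by edgeR. Cd8b1, a CD8 T cell gene, went from 44.0 to 285 CPM in these cells in control and from 33.5 to 356 CPM in B2m-null tumours, and its part in the list's result was not tested. The medians were 0.45 and 0.36 against -0.01 over all genes, of which 8.63% rose and 9.47% fell in control and 6.35% and 5.74% in B2m-null tumours.

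Of 15 genes that carry or limit chemokine receptor signals, all tested in CD8 T cells, 4 rose in control tumours, where 17.6% of all genes rose and 18.5% fell. They were Dock2, which drives lymphocyte migration (0.87, adjusted p = 0.000246), Arrb2 (0.76, adjusted p = 0.00152), Grk2 (0.56, adjusted p = 0.00484) and Grk5 (1.32, adjusted p = 0.00507), the last 3 of which silence activated receptors. In B2m-null tumours 3 rose and Rgs16 fell (-1.76, adjusted p = 0.0211), where 6.27% of all genes rose and 2.54% fell. The list's medians were 0.03 and 0.08, against -0.01 and 0.03 over all genes.

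The level over all haematopoietic cells of a mouse joins the level in each class with the share of each class. This value alone does not tell them apart, and levels and shares by class are given separately. Cxcl16 stood at 208 ± 24.0, 227 ± 56.1, 186 ± 30.1 and 294 ± 49.3 CPM in the 4 groups. Cxcr6 stood at 55.6 ± 31.3, 212 ± 24.2, 29.1 ± 18.1 and 123 ± 50.6 CPM. In B2m-null tumours all treated mice exceeded all isotype mice for both genes (243 to 348 against 154 to 231 CPM of Cxcl16, and 51.1 to 171 against 6.61 to 47.8 CPM of Cxcr6). The exact two-sided permutation p was 0.0159 for each gene, the smallest that 4 against 5 mice allow, and 0.0635 after adjustment over 8 tests. In control tumours the receptor was higher in both treated mice (195 and 229 CPM) than in the isotype mice (35.9 to 111 CPM), at an exact p of 0.0952, the smallest that 2 against 5 allow. Cxcl16 overlapped there (187 and 267 against 181 to 245 CPM, exact p = 0.571). None of the 8 adjusted permutation values was under 0.05, and at unadjusted p the 2 tests in B2m-null tumours were.

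**Figure D5:**
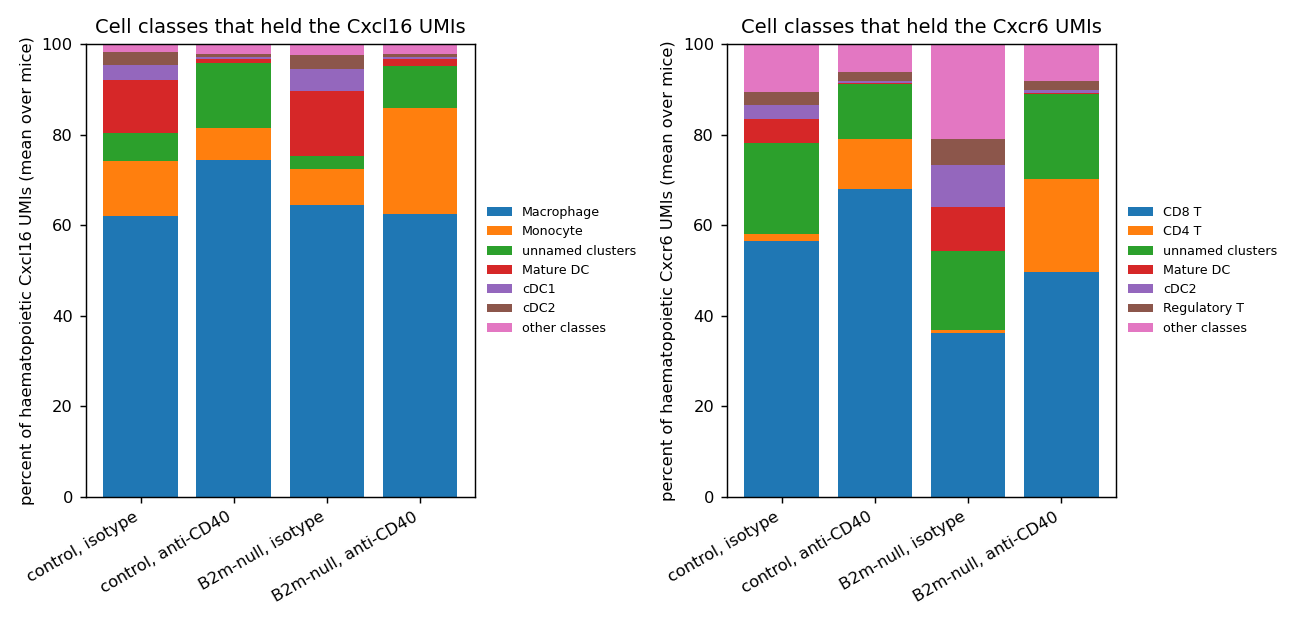
Percent of the Cxcl16 (left) and Cxcr6 (right) UMIs of all haematopoietic cells that lay in each class, as the mean over the mice of a group. Macrophages hold over 60% of the ligand in every group, and CD8 T cells are the main holder of the receptor, joined by CD4 T cells under anti-CD40.

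Macrophages held most of the ligand's UMIs, 62.1 ± 11.4%, 74.4 ± 3.42%, 64.4 ± 16.1% and 62.4% in the 4 groups. Monocytes held 12.1%, 7.09%, 7.95% and 23.4%. Mature dendritic cells, with the highest level per UMI, held 11.5% and 14.4% under isotype but 0.737% and 1.42% under anti-CD40. Of the receptor's UMIs, CD8 T cells held 56.4%, 68.0%, 36.1% and 49.6%. They made up 8.86% of haematopoietic cells in control isotype and 36.0% in control CD40 tumours, and 3.52% and 22.1% in the B2m-null groups. CD4 T cells held 1.64% and 0.769% under isotype and 10.9% and 20.7% under anti-CD40. Clusters left unnamed held at least 12.2% of the receptor's UMIs in each group, and the largest of them, in which 75.5% of cells carried both T and myeloid transcripts, had 162 CPM of Cxcr6 and 234 CPM of Cxcl16.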

How the data were processed

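The authors deposited UMI counts per gene and barcode with hashtag counts in the same matrices, per the file headers. The labels' protocols give the 10x 3' v3 kit, and Cell Ranger 3.0.0, bcl2fastq 2.20.0.422 and mm10 are named in the submitters' processing notes. No further sample columns were set aside.

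Barcodes were assigned to mice by hashtag (at least 20 hashtag counts, mixture posterior of at least 0.9). Those with more than 1 hashtag over 2.5 SD above background were removed as doublets, 11333 of 116552, and doublets within a mouse cannot be seen this way. Barcodes under 200 genes or above 10% mitochondrial counts were dropped and the rest clustered (90024 cells, scanpy 1.11.5, 2000 variable genes, 40 components, 20 neighbours, Leiden resolution 1) without Cxcl16 and Cxcr6. Clusters were named from marker lists where at least 3 markers were raised and the best list led by 0.2. A cluster also stayed unnamed where its leading genes belonged to another class, or where 30% or more of its cells held at least 2 UMIs each of T and of myeloid markers. These limits were set after the clusters had been seen. They left 7.36% of cells in no class, and a further 471 cells, led by Il22 and Il13, were kept as a set without a name.

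Counts were summed per mouse and class, and mice with under 20 cells of a class were left out. edgeR 4.0.16 (TMM, filterByExpr, robust quasi-likelihood test, R 4.3.3) was fitted with all 4 groups and p adjusted by Benjamini-Hochberg over all genes of the set at 0.05. It was tested on simulated counts. Mice of a pool share a lane, so p-values do not cover pool effects. Other lists name at most 6 genes each, those past the threshold with the largest change and the same sign in all mice, plus Adam10, Adam17, Il15 and Il15ra. Results for some list genes are not reported here. Both genes and the lists were chosen with earlier results of these data known. Positions come from the GENCODE vM21 annotation of mm10, and the promoter sequence from RefSeq. Shares of cells are given with no interval. Alternatives included other tools, scaling, filters, units, thinning, gates, a replicate block and left-out mice or pools.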

Additional observations from a re-analysis of the deposited data

Results flagged for a closer look

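The Cxcr6 level over all haematopoietic cells had 1 control isotype mouse far from the others, at 111 CPM against 47.9 CPM for the nearest mouse. It was the only such value in 31 groups of 4 to 10 mice examined, and chance gives about 1 in 20.

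Tests of the difference between the antibody effects in B2m-null and control tumours passed in 4 sets. For Cxcl16 the effect was larger in B2m-null tumours by 0.61 log2 in monocytes and macrophages (adjusted p = 0.0450, edgeR), by 0.91 in monocytes (adjusted p = 0.0113) and by 1.54 in cDC2 (adjusted p = 0.00678). For Cxcr6 it was smaller in regulatory T cells, at -1.30 log2 (adjusted p = 0.00599), which did not pass without cells that had a Cd8a or Cd8b1 UMI (-1.58, adjusted p = 0.0753). In that order the 4 calls were lost in 19 of 33, 4 of 32, 3 of 31 and 6 of 29 alternatives. All 4 comparisons rest on the single control CD40 pool.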

How the results depend on the processing

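Over 32 results by cell set, 750 alternatives were run, of which 599 kept the direction and the side of the threshold, 130 kept the direction and no longer passed, and 21 changed sign. The same replicate numbers in different groups were not taken to pair the samples. Without control CD40, correlations of deviations between groups ran from -0.08 to 0.24. The highest, 0.20 and 0.24, were those of control isotype with B2m-null CD40 in monocytes and macrophages and in CD8 T cells. Whether the numbers mark a pairing was not tested. With the replicate block, in 3 groups, Cxcr6 in CD8 T cells differed between genotypes under isotype by 0.011 log2 (0.019 with no replicate block in those groups). No call of the main comparisons refitted in this way was lost. Control CD40 was left out of that fit, so the antibody comparison in control tumours was not checked by it.

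Cxcl16 in monocytes and macrophages rose by 0.34 to 0.75 in control tumours with a mouse or pool left out. The genotype difference under isotype no longer passed in cells thinned to 2000 UMIs (-0.34), in gates by marker UMIs (-0.39) or with the lane as the unit (-0.38), and was -0.51 to -0.33 with a mouse or pool left out. Genes called in that comparison numbered 1071, and 4 without control isotype replicate 1 to 1899 without B2m-null isotype replicate 2. Under anti-CD40 they numbered 2631 in control and 4508 in B2m-null tumours, and 896 and 2513 by lane. In CD8 T cells they numbered 3466 in control tumours, and 928 without 1 control CD40 mouse. In B2m-null tumours they were 847, with 46 by lane and 2084 without replicate 1 of the CD40 mice, and between genotypes under isotype 31, with 0 by edgeR at 5% mitochondrial counts (706 at an unadjusted p under 0.05) and 262 with no low-count filter. The rise in dendritic cells of B2m-null tumours did not pass thinned (0.68), gated (0.40) or by lane (0.73), and was 0.19 to 1.21 with a mouse or pool left out.

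Cxcr6 in CD8 T cells of control tumours did not pass in DESeq2 (0.66), thinned (0.34), gated (0.65) or by lane (0.68), and was 0.54 to 0.77 with a mouse or pool left out. In B2m-null tumours it was -0.023 to 0.67 when one was left out. The genotype difference under isotype changed sign with RLE scaling (0.033), DESeq2 (0.052), at most 5% mitochondrial counts (0.13), resolution 2 (0.11) and by lane (0.026), and was -0.32 to 0.31 with a mouse or pool left out. In regulatory T cells of B2m-null tumours the rise did not pass at 5% mitochondrial counts (0.72) or without cells holding a Cd8a or Cd8b1 UMI (0.32), and was 0.88 to 1.33 with a mouse or pool left out. The rise in NK cells was 2.01 to 2.93 in control and 0.55 to 1.69 in B2m-null tumours with a mouse or pool left out. In the latter it did not pass at 5% mitochondrial counts (1.80), thinned (1.04), without cells holding T and myeloid transcripts (1.31), gated (2.66) or without cells with a Cd8a or Cd8b1 UMI (1.45). Cxcr6 in CD4 T cells under anti-CD40 changed sign between genotypes at 5% mitochondrial counts (0.0069), thinned (0.22) and without cells holding T and myeloid transcripts (0.017), and was -0.14 to 0.037 with a mouse or pool left out. Cxcl16 over all haematopoietic cells of control tumours was -21.1 to 27.7 CPM higher under anti-CD40 with a mouse left out. The causes were not tested, other than that leaving out mice or cells leaves fewer to test.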
